A study of Mus musculus with 4 samples.

Results

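Oxidative phosphorylation makes most of the ATP of a respiring cell. Complexes I and II pass electrons from NADH and succinate to ubiquinone, complex III hands them to cytochrome c, complex IV passes them to oxygen, and complex V, the ATP synthase, uses the proton gradient that complexes I, III and IV build. Most subunits are encoded in the nucleus and imported into mitochondria, a small set of subunits of complexes I, III, IV and V comes from mitochondrial DNA, and complex II has nuclear subunits only. The nuclear-encoded genes of these complexes were followed here in newly made RNA of mouse embryonic stem cells depleted of SNRNP70, a core protein of U1 snRNP. This small nuclear ribonucleoprotein recognises 5′ splice sites and is also known to protect nascent transcripts from early cleavage and polyadenylation. Members were the genes whose symbols mark them as complex I subunits (Ndufa, Ndufb, Ndufc, Ndufs and Ndufv genes), complex I assembly factors (Ndufaf genes), complex II (Sdha to Sdhd), complex III (Uqcr genes and Cyc1), complex IV (Cox4 to Cox8 genes) or complex V (Atp5 genes). Of 113 matching rows, 14 with a pseudogene symbol were left out, and 99 of the 55401 genes in the table remained.

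Embryonic stem cells of the 129/Ola line, grown in serum with leukemia inhibitory factor, carried SNRNP70 fused to an auxin-inducible degron (SNRNP70AID), with which the auxin IAA sends the tagged protein to the proteasome. The groups were SNRNP70AID cells with no IAA (0 h, genotype labelled WT) and SNRNP70AID cells given IAA for 5 h (genotype labelled as SNRNP70 degradation), with 2 libraries each. Both groups carry the degron and were labelled with the uridine analogue 4-thiouridine, whose RNA was biotinylated and caught on streptavidin, so the values describe labelled RNA and not the whole RNA pool. An untagged line given IAA was not analysed here, whether the line is a single clone was not given in the sources used here, and an effect of IAA itself cannot be told apart from loss of SNRNP70. The series set out to compare SNRNP70 with ZFP207 in U1 snRNP function.

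The libraries held 7174772 to 17752887 counts, and 3 counts were worth 0.154 to 0.382 CPM (counts scaled to the library total, with TMM normalisation factors). The series text calls the replicates independent without naming separate cultures. The p-values therefore reflect the spread of these libraries alone, and that spread may be technical. All 12 stem cell markers examined (Pou5f1, Nanog, Sox2 and others) had at least 1 CPM in every library, and their summed level was 4772 and 4518 CPM at 0 h and 5043 and 4897 CPM at 5 h, although 6 of the 12 rose (Sox2 from a mean of 399.8 to 728 CPM) and 3 fell (Tfcp2l1, Nanog and Tdgf1). Of 8 fibroblast markers, Col3a1, Dcn, Lum and Postn were at 0 in all libraries, Thy1 (7.31 to 9.60 CPM) and Col1a1 (1.53 to 3.24 CPM) were above 1 CPM in each, and the list summed to 10.6 to 14.6 CPM. Among 5 endoderm and 4 mesoderm markers none was called. Of 4 neural markers Sox1 (mean 3.74 and 10.7 CPM) rose, Pax6 (5.21 and 4.90 CPM) and Nes (3.25 and 5.07 CPM) were not called, and Neurog2 was not tested. Of 4 trophoblast markers Tfap2c (88.0 and 151 CPM) rose, Eomes (2.43 and 3.61 CPM) was not called, Elf5 was not tested, and Cdx2 was at 0 in all libraries. The part of these marker changes in the members' values was not tested. In such bulk samples fewer cells of a type and less labelled RNA per cell cannot be told apart. Labelled Snrnp70 RNA rose from 249 and 243 CPM to 451 and 475 CPM, and Zfp207 rose from 548 and 605 CPM to 898 and 1008 CPM. The degron acts on the protein, so these RNA values do not check the labels.

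Of the 99 members, 87 had enough counts to be tested. In edgeR's quasi-likelihood test, with p adjusted over all 17344 tested genes after Benjamini and Hochberg and called under 0.05, 28 members rose and 15 fell after 5 h of IAA. These were 32.2% and 17.2% of the tested members, against a background of 22% of all tested genes that rose and 21.2% that fell (43.2% in either direction). The median log2 fold change of the members was 0.23, beside -0.016 for all tested genes. The members split by complex. Complex III had 6 of 9 genes that rose and none that fell, complex IV had 7 of 12 that rose and 1 that fell, and complex V had 9 of 17 that rose and 4 that fell. Complex II had none that rose and 3 of 4 that fell, and the 7 core subunits of complex I had none that rose and 3 that fell. The 30 tested accessory subunits of complex I had 5 that rose and 3 that fell. The 8 complex I assembly factors had 1 in each direction. No test was made of the difference between complexes, so these counts describe the lists. The members' shares of all counts do not use the TMM factors. All members together took 0.306% and 0.303% at 0 h and 0.311% and 0.299% at 5 h, so the groups overlapped, and the accessory subunits took 0.0528% and 0.0506% and then 0.0483% and 0.0461%, lower at 5 h while their TMM median was 0.18. Complex II took 0.0196% and 0.0199% of all counts at 0 h and 0.0120% and 0.0115% at 5 h, and complex III took 0.0239% and 0.0234% at 0 h and 0.0309% and 0.0273% at 5 h.

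**Figure D1:**
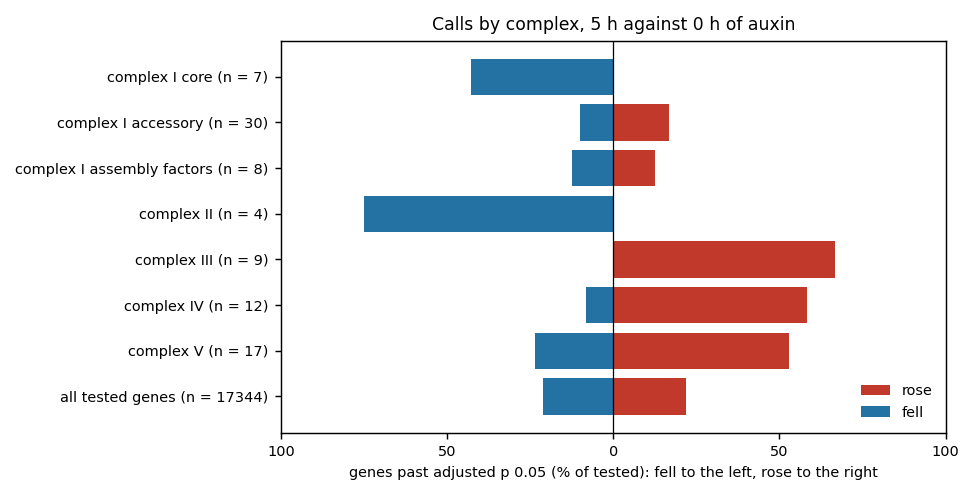
The horizontal axis gives the percentage of tested genes past an adjusted p of 0.05, with genes that fell drawn to the left and genes that rose to the right, for each complex and for all 17344 tested genes. Complexes III, IV and V lean to the right, with 66.7%, 58.3% and 52.9% of genes risen under TMM scaling, and complex II leans to the left with 75.0% fallen.

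The median change between groups was larger than the median spread between replicates, in the members and in all tested genes. Between the libraries of a group the median absolute log2 difference of the members was 0.15 at 0 h and 0.15 at 5 h, and between the group means it was 0.43 (on log2 of CPM plus 0.5). Over all tested genes the same values were 0.18, 0.23 and 0.55. Both 5 h libraries lay above both 0 h libraries in 46 members (52.9%, against 36% of all tested genes) and below them in 28 members (32.2%, against 37.5%), and the groups overlapped in 13. Without 0 h replicate 2, the library with the lowest total, the median of the members was 0.21, beside -0.026 for all tested genes. Without 0 h replicate 1 these medians were 0.27 and 0.017. DESeq2 called 24 members that rose and 8 that fell (27.6% and 9.20%, beside 19.4% and 16.8% of all tested genes). The share of higher against lower calls depends on the scaling. Library totals gave 15 higher and 23 lower members, and scaling to the mitochondrially encoded genes, which themselves took 4.34% to 4.41% of counts at 0 h and 6.03% to 7.17% at 5 h, gave 2 and 40. As shares, library totals gave 17.2% higher and 26.4% lower members beside 13.2% and 30.3% of all tested genes, and mitochondrial scaling gave 2.30% and 46.0% beside 2.28% and 51.2%. Under that last scaling the members' shares were close to those of all genes.

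**Figure D2:**
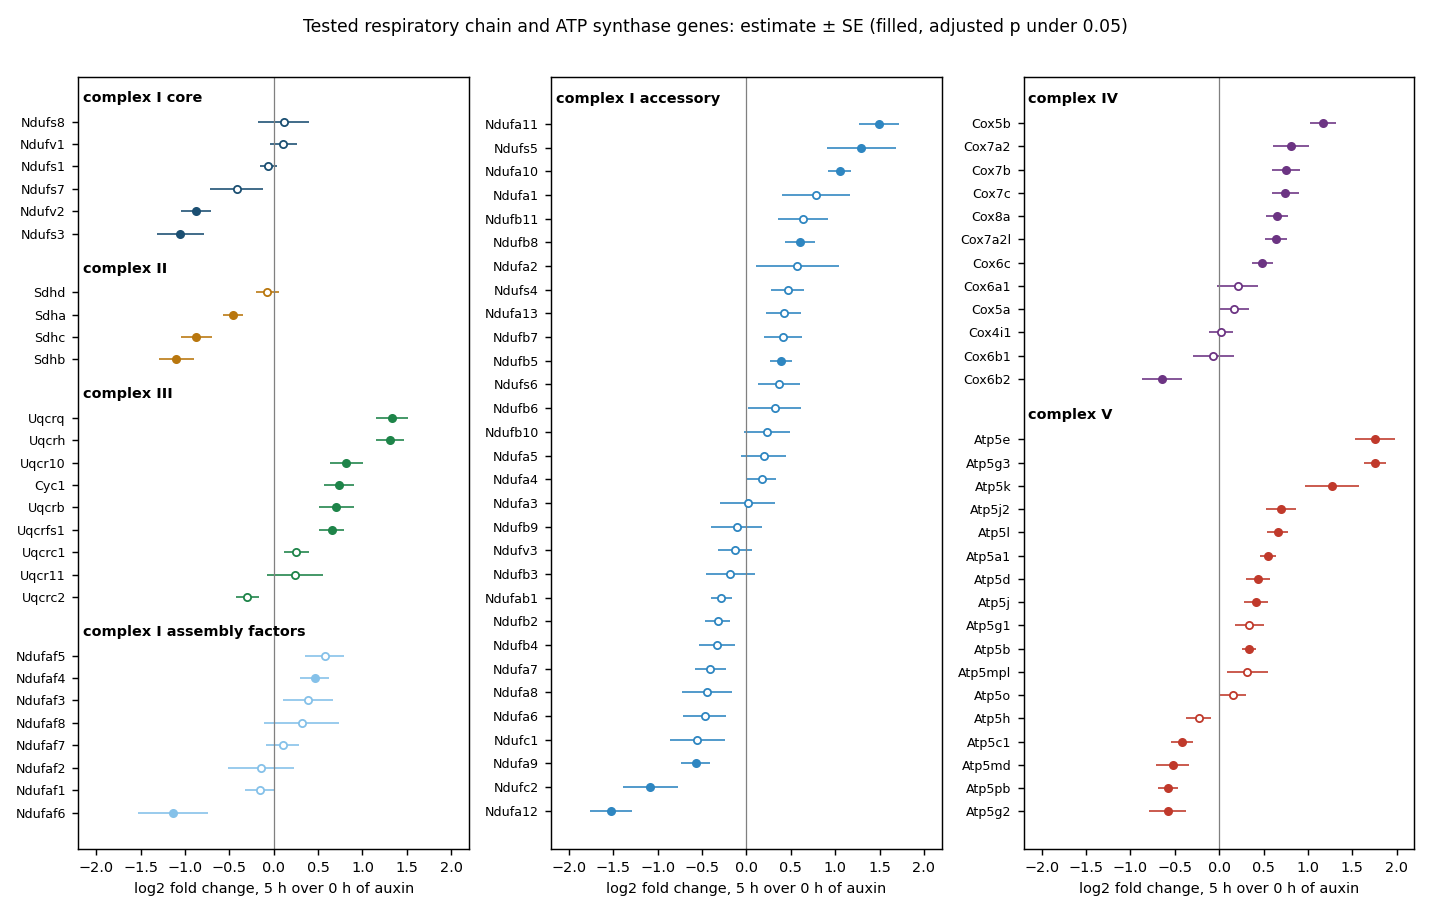
Each point is the log2 fold change of 1 tested member (6 of the 7 core subunits of complex I are shown), 5 h over 0 h, with its standard error, ordered within its complex; filled points passed an adjusted p of 0.05. The estimates run from -1.53 (Ndufa12) to 1.76 (Atp5e). The points of complex II lie left of 0 while 8 of 9 points of complex III lie right of 0 under TMM scaling. When the scale was the mitochondrially encoded genes, the median of complex III was -0.16, beside -0.86 for all tested genes.

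Promoters of respiratory genes are known for binding sites of NRF1, of GABP (an ETS factor, also called NRF2) and of YY1. RefSeq promoter windows (GRCm38.p6, 250 bases before to 50 after the start) were available for 73 of the 87 tested members, and 68 of these had a single window. The NRF1 core, searched as GCGCA followed directly by its reverse complement TGCGC and thus alike on both strands, was in windows of 7 of 73 members (9.59%), against 2.29% of 11068 tested genes and 1.07% of all 27025 genes of the table. The YY1 core AAGATGGC, searched on both strands, was in 11 members (15.1%, against 5.10% of tested genes and 3.19% of the table), 9 of them with the match after the start. The ETS core CCGGAAG, searched on both strands, was in 19 members (26.0%, against 19.6% and 9.93%). The ETS core ends in the letters AAG with which the YY1 core begins, and no member held matches that shared these letters (0 of 73). A match is a description of the window, not of binding. The NRF1 core was in 3 of 23 members that rose, 1 of 12 that fell and 3 of 38 not called, beside 2.14%, 2.91% and 2.05% of all tested genes with these calls. The YY1 core was in 3, 2 and 6 of these members, beside 7.0%, 5.63% and 4.05%, and the ETS core in 6, 3 and 10, beside 22.7%, 23.1% and 16.7%. In 5 members the NRF1 core lay upstream of the start, and those stretches are printed because they hold the same 10 letters in genes that went different ways. Capitals mark the core, and each stretch runs 5′ to 3′ on the gene's strand.
Ndufa11 (rose; chr17:56717677-56717736, + strand): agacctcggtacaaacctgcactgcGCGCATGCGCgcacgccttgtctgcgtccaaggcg
Ndufaf4 (rose; chr4:24897945-24898004, + strand): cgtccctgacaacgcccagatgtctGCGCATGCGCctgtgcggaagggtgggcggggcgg
Atp5k (rose; chr5:108434415-108434474, - strand): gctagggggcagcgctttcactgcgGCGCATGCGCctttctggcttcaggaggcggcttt
Cox6a1 (not called; chr5:115349086-115349145, - strand): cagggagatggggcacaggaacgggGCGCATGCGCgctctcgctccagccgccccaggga
Atp5g2 (fell; chr15:102671055-102671114, - strand): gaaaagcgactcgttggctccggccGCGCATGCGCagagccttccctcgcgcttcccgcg
The core begins 60 bases before the start in Ndufa11, 113 in Ndufaf4, 50 in Atp5k, 162 in Cox6a1 and 42 in Atp5g2.

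Complex II, succinate dehydrogenase, links the citric acid cycle to the respiratory chain, and 3 of its 4 genes fell. Sdhb, the iron-sulfur subunit (chromosome 4, 140961271 to 140979198), was at 25.5 and 28.2 CPM at 0 h and at 10.9 and 14.3 CPM at 5 h. Both 5 h libraries lay below both 0 h libraries, and the log2 fold change was -1.10 ± 0.20 (SE), a 2.14-fold lower level (edgeR, adjusted p = 0.00124). Sdhc, a membrane anchor that helps bind haem, stood at 26.9 and 29.3 CPM and then at 16.0 and 14.6 CPM. It fell by 0.87 ± 0.17 on the log2 scale (adjusted p = 0.00215). Sdha, the flavoprotein that oxidises succinate, went from 80.4 and 76.3 CPM to 57.9 and 55.8 CPM, a log2 fold change of -0.46 ± 0.11 (edgeR, adjusted p = 0.00719). The other anchor, Sdhd, had 46.0 and 47.6 CPM at 0 h and 44.7 and 44.3 CPM at 5 h, a log2 difference of -0.07 ± 0.12 that did not pass. Sdha was at -0.42 and was not called without 0 h replicate 1. The median of the complex was -0.67, and -0.93 and -1.51 with library totals and with mitochondrial scaling. A non-coding RNA gene overlaps 9.36% of the span of Sdhc, and the strand setting of the counting was not given in the sources used here.

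**Figure D3:**
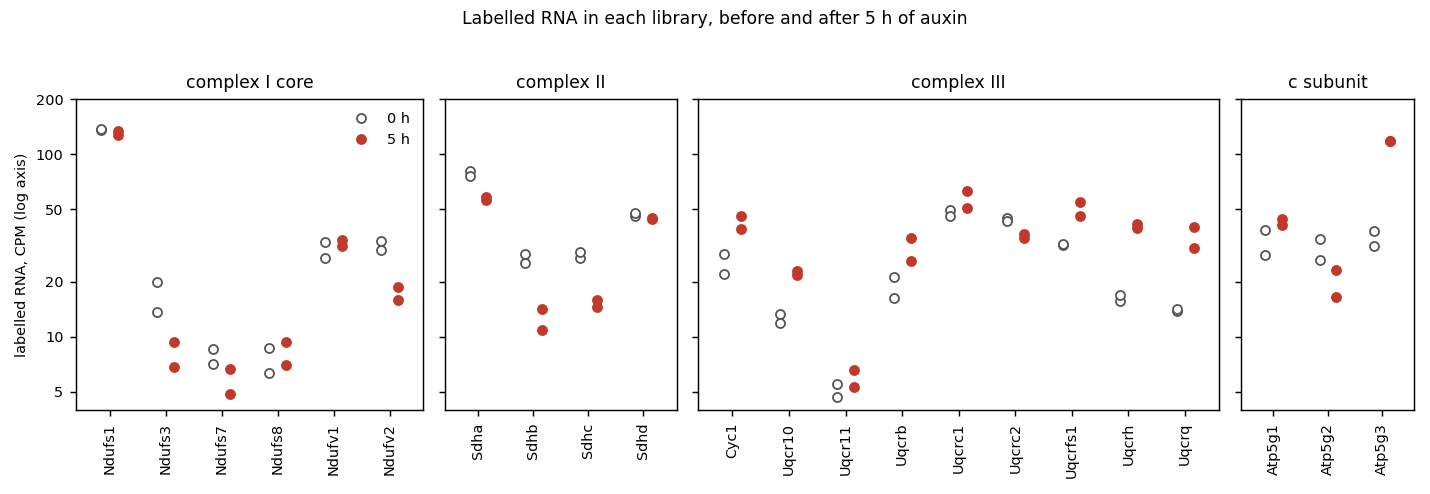
Labelled RNA in CPM on a log axis for 6 core subunits of complex I, for complex II, for complex III and for the c-subunit genes of complex V; open points are the 0 h libraries and filled points the 5 h libraries, 2 of each. Sdhb, Sdhc and Ndufv2 sit lower at 5 h and Uqcrh, Uqcrq and Atp5g3 sit higher with TMM, each with no overlap between groups; heights of different genes are not comparable because CPM is not divided by gene length.

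The core subunits of complex I carry the flavin, the iron-sulfur clusters and the ubiquinone site of its peripheral arm, and 3 fell, of which 2 are described. Ndufv2, an iron-sulfur subunit that pairs with Ndufv1, went from 29.9 and 33.3 CPM to 15.9 and 18.7 CPM (log2 -0.87 ± 0.17, edgeR, adjusted p = 0.00207). Ndufs3, a subunit next to the ubiquinone-binding part, had 19.9 and 13.6 CPM and then 9.39 and 6.81 CPM, with a wider spread at 0 h. It fell by 1.05 ± 0.26 (edgeR, adjusted p = 0.00837), and lost its call (-0.73) when 0 h replicate 1 was left out. The other 4 core genes did not pass. Ndufs7 had a log2 difference of -0.42 ± 0.30, Ndufs1 one of -0.06 ± 0.09, Ndufv1, which binds NADH and the flavin, one of 0.11 ± 0.16, and Ndufs8 one of 0.11 ± 0.29. Ndufv1 stood at 32.9 and 27.1 CPM and then at 31.3 and 34.0 CPM, and Ndufs8 at 8.70 and 6.36 CPM and then at 9.39 and 7.03 CPM, with overlapping groups in both. Ndufs1 was the most precisely measured of these, at 136 and 137 CPM before and 128 and 134 CPM after IAA. A non-coding RNA gene that rose, Ino80dos, overlaps 44.2% of the span of Ndufs1. The median of the core subunits was -0.42, and between -0.67 and -0.21 when any 1 library was left out.

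Accessory subunits of complex I surround the core and support its assembly, and they moved in both directions. Ndufa11, a membrane arm subunit, went from 10.4 and 7.0 CPM to 27.1 and 23.3 CPM, the largest rise in the complex (2.82-fold, SE 0.23 on the log2 scale, edgeR, adjusted p = 0.000467). Ndufa10, a subunit related to deoxynucleoside kinases, had 35.4 and 33.0 CPM at 0 h and 74.2 and 67.7 CPM at 5 h (log2 1.05 ± 0.13, edgeR, adjusted p = 0.000127). It spans 34340 bp, and was the only member of 20 to 50 kb that rose. Ndufs5 was at 2.37 and 2.04 CPM and then at 6.35 and 4.54 CPM, a log2 fold change of 1.30 ± 0.39. The pseudogene row Ndufs5-ps, with 2.16 and 2.29 CPM before and 3.04 and 5.84 CPM after IAA, can share reads with it. Ndufb8 and Ndufb5, of the far part of the membrane arm, rose by 0.60 ± 0.16 and 0.39 ± 0.13 on the log2 scale. In the other direction, Ndufa12, of the peripheral arm, fell from 16.0 and 17.7 CPM to 6.35 and 5.19 CPM, the lowest estimate of all members (log2 -1.53 ± 0.24, edgeR, adjusted p = 0.000545). Its pseudogene row Ndufa12-ps stood at 4.37 and 3.94 CPM and then at 3.59 and 3.89 CPM. Ndufc2, a membrane arm subunit, fell by 1.08 ± 0.31 (7.77 and 9.67 CPM, then 3.59 and 4.65 CPM). Ndufa9, which binds a nucleotide near the ubiquinone site, fell by 0.57 ± 0.17 (26.7 and 25.6 CPM, then 17.2 and 18 CPM).

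Of these 8 calls, 5 were lost when a single library was left out. Without 0 h replicate 2, Ndufs5 (1.21), Ndufb8 (0.52), Ndufb5 (0.41), Ndufa9 (-0.60) and Ndufc2 (-0.93) were not called. Ndufa9 (-0.53) and Ndufb5 (0.37) were also lost without 0 h replicate 1, and Ndufs5 (1.03), Ndufb5 (0.35) and Ndufc2 (-0.89) without 5 h replicate 1. With mitochondrial scaling none of the accessory subunits rose and 14 fell (46.7%), beside 2.28% and 51.2% of all tested genes. The 22 accessory subunits that did not pass ran from -0.55 ± 0.31 (Ndufc1) to 0.79 ± 0.39 (Ndufa1). Among them Ndufab1, the mitochondrial acyl carrier protein, was at 61.5 and 62.0 CPM and then at 49.9 and 51.7 CPM (log2 -0.28 ± 0.12). Ndufa4, whose product is now placed in complex IV although the gene kept a complex I name, had 20.7 and 21.9 CPM and then 23.1 and 25 CPM (0.17 ± 0.16). Its hypoxia-induced relative Ndufa4l2 had 0 counts in all libraries.

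Assembly factors of complex I help to build it and are not part of the finished enzyme. Ndufaf4, which acts on the early ubiquinone-binding part, rose from 58.4 and 45.3 CPM to 62.8 and 81.6 CPM (log2 0.46 ± 0.16, edgeR, adjusted p = 0.0399). The groups came close to each other, and the call was lost when replicate 2 of either group was left out (0.30 and 0.28). Ndufaf6 fell from 6.38 and 5.85 CPM to 1.93 and 3.78 CPM (log2 -1.13 ± 0.40, edgeR, adjusted p = 0.0401). It was at -1.05, -1.19 and -0.70 and not called without 0 h replicate 1, 0 h replicate 2 or 5 h replicate 1. The fit with a replicate block called neither gene. Ndufaf5, which hydroxylates Ndufs7, had 11.8 and 9.03 CPM and then 16.4 and 15.0 CPM and did not pass (0.57 ± 0.22). Ndufaf2, a relative of Ndufa12 that holds its place during assembly, was at 4.27 and 3.69 CPM and then at 4.07 and 3.13 CPM. Ndufaf1 (-0.15 ± 0.17), Ndufaf7 (0.10 ± 0.18), Ndufaf3 (0.39 ± 0.28) and Ndufaf8 (0.31 ± 0.42) did not pass either.

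Complex III, the cytochrome bc complex, had more genes that rose than fell with TMM scaling. Uqcrq, a small subunit next to cytochrome b, went from 13.9 and 14.3 CPM to 39.8 and 30.8 CPM (log2 1.33 ± 0.18, edgeR, adjusted p = 0.000247). Uqcrh, the hinge protein between the complex and cytochrome c, stood at 15.8 and 16.9 CPM and then at 39.5 and 41.2 CPM (log2 1.31 ± 0.15, edgeR, adjusted p = 0.000109). In both genes the lowest 5 h library was well above the highest 0 h library. Uqcr10 rose from 13.4 and 11.8 CPM to 23.0 and 21.7 CPM (0.82 ± 0.19). Cyc1, the haem subunit that passes electrons to cytochrome c, rose by 0.74 ± 0.17, and Uqcrb by 0.71 ± 0.20. Uqcrfs1, the Rieske iron-sulfur protein, was at 31.8 and 32.2 CPM before and at 54.6 and 45.6 CPM after IAA (0.65 ± 0.14). The 2 large matrix subunits did not pass. Uqcrc1 had 49.3 and 46.1 CPM and then 63.0 and 50.8 CPM (0.26 ± 0.14), and Uqcrc2 had 44.5 and 43.3 CPM and then 34.9 and 36.6 CPM (-0.30 ± 0.13). Uqcr11 had 4.68 and 5.47 CPM and then 6.56 and 5.30 CPM (0.24 ± 0.31). Cyc1 was at 0.58 and not called without 0 h replicate 2, and Uqcrb lost its call without 0 h replicate 1 (0.52) or 5 h replicate 2 (0.51). The median of the complex, 0.71, became 0.44 under library totals. Under mitochondrial scaling it was -0.16, beside -0.86 for all tested genes. None of the complex then rose and 2 fell (22.2%), beside 2.28% and 51.2% of all tested genes.

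Complex IV, cytochrome c oxidase, has its catalytic subunits from mitochondrial DNA and is surrounded by small nuclear-encoded subunits, of which 7 of 12 tested rose. Cox5b, which binds zinc on the matrix side, went from 20.4 and 19.9 CPM to 42.5 and 48.6 CPM (log2 1.17 ± 0.15, edgeR, adjusted p = 0.000170). Cox8a had 42.1 and 47.0 CPM and then 73.0 and 66.4 CPM (0.65 ± 0.13), and Cox7c had 35.5 and 45.3 CPM and then 61.4 and 73.1 CPM (0.75 ± 0.15). The groups of these genes did not overlap. Cox7b rose from 19.5 and 22.4 CPM to 34.0 and 35.9 CPM (0.75 ± 0.16), and Cox6c rose by 0.49 ± 0.12. Cox7a2 went from 13.4 and 19.5 CPM to 29.8 and 26.8 CPM (0.81 ± 0.20), and its relative Cox7a2l, which joins complexes III and IV in supercomplexes, from 42.4 and 47.0 CPM to 72 and 67.0 CPM (0.64 ± 0.12). Tmem30a, on the same strand, overlaps 15.3% of the span of Cox7a2, with means of 58.0 and 58.2 CPM (not called). Without 0 h replicate 1 Cox7a2 was at 0.55, and without 0 h replicate 2 Cox6c was at 0.49, and neither was called. Cox4i1, the subunit that binds regulatory nucleotides, stood at 47.7 and 44.5 CPM and at 50.4 and 43.1 CPM, with overlapping groups (0.02 ± 0.13). Cox5a (0.17 ± 0.17), Cox6a1 (0.21 ± 0.23) and Cox6b1 (-0.07 ± 0.23) overlapped between the groups as well. With mitochondrial scaling none of complex IV rose and 4 fell (33.3%), beside 2.28% and 51.2% of all tested genes. The median of 0.57 became -0.28, beside -0.86 for all tested genes.

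Several complex IV subunits have tissue forms encoded by separate genes. Cox6b2, the form known from testis, was the only member of the complex that fell, from 16.6 and 17.7 CPM to 12.4 and 9.30 CPM (log2 -0.64 ± 0.22, edgeR, adjusted p = 0.0366). That call was lost with DESeq2 and without 0 h replicate 1 (-0.69), 0 h replicate 2 (-0.61) or 5 h replicate 2 (-0.44). Its general counterpart Cox6b1 had 13.8 and 10.8 CPM at 0 h and 11 and 12.9 CPM at 5 h. The other tissue forms were at or near 0. Cox4i2, Cox6a2, Cox7b2, Cox8b and Cox8c had 0 counts in all libraries, Cox7a1 had 10 and 0 counts at 0 h and 4 and 0 at 5 h, and Cox6c2 had at most 2 counts.

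Complex V joins a catalytic head and rotor to a proton channel in the membrane. In the head and central stalk, Atp5a1 and Atp5b, the alpha and beta subunits, rose by 0.55 ± 0.09 and 0.34 ± 0.08 on the log2 scale, from 251 and 268 CPM to 398 and 364 CPM and from 391 and 374 CPM to 485 and 481 CPM. The span of Atp5b holds Snord59a and Mir677, rows of their own that rose by 2.09 and 2.29 on the log2 scale. Snord59a went from a mean of 2.58 to 10.9 CPM and Mir677 from 1.04 to 5.27 CPM. Reads of host and guest cannot be told apart, and the part of the guests in the value of Atp5b was not tested. Atp5e, the epsilon subunit, went from 7.82 and 5.85 CPM to 21.8 and 25.7 CPM, a 3.38-fold rise (log2 1.76 ± 0.22, edgeR, adjusted p = 0.000175). Atp5d, the delta subunit, rose by 0.44 ± 0.14, while Atp5c1, the gamma subunit that turns inside the head, went from 51.3 and 50.6 CPM to 38.9 and 37.5 CPM and fell by 0.42 ± 0.13. Cbarp, on the strand opposite Atp5d, overlaps 23.3% of its span, with means of 28.6 and 38.0 CPM (log2 0.41, not called). Without strand, reads of Atp5d and Cbarp in the overlap cannot be told apart. Of the peripheral stalk, Atp5pb fell from 77.4 and 72.7 CPM to 50.1 and 50.7 CPM (log2 -0.58 ± 0.12, edgeR, adjusted p = 0.00243), and Atp5j rose by 0.42 ± 0.14. The stalk genes Atp5o (0.16 ± 0.15) and Atp5h (-0.23 ± 0.14) did not pass. Of the small membrane subunits, Atp5k (1.27 ± 0.30), Atp5j2 (0.70 ± 0.17) and Atp5l (0.66 ± 0.12) rose, Atp5md fell from 29.2 and 25.8 CPM to 16.8 and 21.8 CPM (-0.52 ± 0.18), and Atp5mpl did not pass (0.32 ± 0.23).

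The c ring of complex V is made from a protein that 3 genes encode with the same mature sequence and different import signals, and these genes went different ways. Atp5g3 (chromosome 2, 73908447 to 73912464) stood at 37.8 and 31.4 CPM at 0 h and at 118 and 118 CPM at 5 h. It rose 3.38-fold (log2 1.76 ± 0.12, edgeR, adjusted p = 1.01e-05) and was called in all 13 alternatives, mitochondrial scaling included. Atp5g1 had 38.4 and 27.9 CPM and then 40.9 and 44.1 CPM, higher at 5 h without overlap but not past the threshold (0.34 ± 0.17). Atp5g2 went from 26.1 and 34.1 CPM to 23.2 and 16.4 CPM (log2 -0.58 ± 0.21, edgeR, adjusted p = 0.0441). Its call did not hold with DESeq2, with DESeq2's size factors, with the replicate block, or without 0 h replicate 2 (-0.39) or 5 h replicate 2 (-0.34). The 3 genes can share reads where their coding sequences are alike. Leaving out 0 h replicate 2 lost the calls of Atp5j2 (0.63), Atp5d (0.51), Atp5j (0.53), Atp5b (0.30), Atp5c1 (-0.43) and Atp5md (-0.60), and left 5 genes of complex V that rose and 1 that fell. Without 0 h replicate 1, Atp5d (0.36), Atp5j (0.31), Atp5b (0.38), Atp5c1 (-0.40) and Atp5md (-0.42) were not called, nor was Atp5j without 5 h replicate 2 (0.37) or Atp5md without 5 h replicate 1 (-0.34). DESeq2 called 7 of complex V that rose and 1 that fell (41.2% and 5.88%, beside 19.4% and 16.8% of all tested genes).

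Gene span moved with these values. The rank correlation (Spearman) of log2 fold change with RefSeq span was -0.430 across the 87 members and -0.297 across 15098 tested genes with a span. It is a description across genes, which share the same 4 libraries. The median span of the tested members was 7279 bp, against 19334 bp for all tested genes. It was 4775 bp in complex III, 6128 bp in complex IV, 7131 bp in complex V, 10095 bp in the complex I core and 19706 bp in complex II. Of 26 members under 5 kb, 10 rose and 1 fell (38.5% and 3.85%), beside 32.2% and 4.68% of all tested genes of that size, and both had a median log2 fold change of 0.49. Of 48 members of 5 to 20 kb, 17 rose and 7 fell (35.4% and 14.6%, beside 24.8% and 20.2%), with a median of 0.17 beside -0.0034. Of 11 members of 20 to 50 kb, 1 rose and 7 fell (9.09% and 63.6%, beside 18.8% and 31.5%), with a median of -0.46 beside -0.21. The 2 members over 50 kb, Ndufaf2 and Ndufs4, did not pass. Within the class of 5 to 20 kb, complexes III, IV and V had 12 genes that rose and 3 that fell of 21, and complex II and the complex I core had none that rose and 3 that fell of 6. No test was made between these counts. Relative to the median of all tested genes of the same class, the median member was 0.11 higher, and 47 of 87 members lay above it. By group these were 7 of 9 in complex III, 9 of 12 in complex IV and 11 of 17 in complex V. They were 14 of 30 accessory subunits, 4 of 8 assembly factors, 2 of 7 of the complex I core and 0 of 4 of complex II. The median distance from the class was 0.26 in complex III, 0.21 in complex IV, 0.34 in complex V, -0.09 in accessory subunits, -0.0008 in assembly factors, -0.42 in the core and -0.46 in complex II. The part of span in the differences between complexes was not tested.

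**Figure D4:**
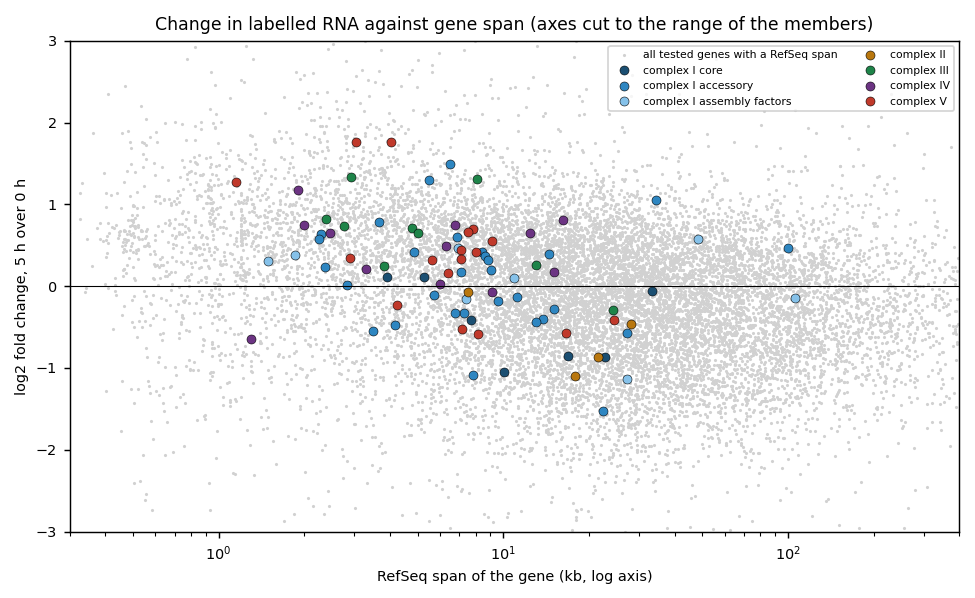
Each coloured point is a tested member, placed by its RefSeq span in kb (log axis) and its log2 fold change, 5 h over 0 h, over the cloud of all tested genes with a span in grey; the axes are cut to the range of the members. Members under 5 kb lie mostly above 0 under TMM scaling (median 0.49) and those of 20 to 50 kb mostly below (median -0.46), with Ndufa10 at 1.05 as the exception that rose.

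Scaling shifted the complexes nearly alike, as it does for all genes. The order of the medians was complex III, IV, V, assembly factors, accessory subunits, core subunits and complex II in each of the 3 scalings. With mitochondrial scaling the medians ran from -0.16 to -1.51, beside -0.86 for all tested genes, whose median with library totals was -0.28. The distance of each median from that of all genes leaves out this common shift. Over TMM and 13 alternatives it lay between 0.63 and 0.81 for complex III, 0.50 and 0.65 for complex IV, 0.31 and 0.50 for complex V, -0.60 and -0.18 for the complex I core and -0.70 and -0.59 for complex II.

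**Figure D5:**
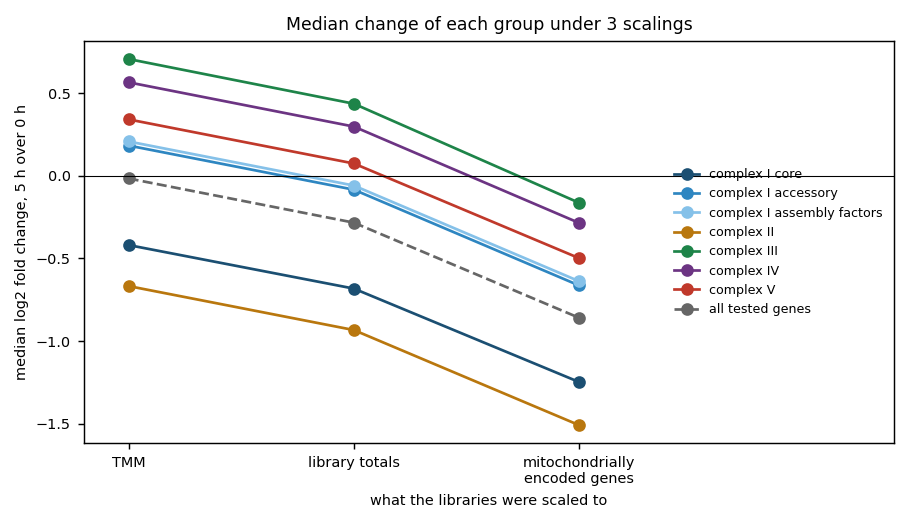
The vertical axis gives the median log2 fold change, 5 h over 0 h, of each group of tested members and of all tested genes (dashed), with libraries scaled by TMM, by their totals or by their mitochondrially encoded counts. All medians move down together, from 0.71 to -0.16 for complex III and from -0.67 to -1.51 for complex II, and their order is the same in the 3 columns.

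Other genes of the pathway were described from separate lists. Of 13 protein genes of mitochondrial DNA, which encode the partners of these subunits, 12 rose (92.3%, beside 22% of all tested genes). The median of the 13 was 0.91. The highest were mt-Atp8 (1.05 ± 0.08) and mt-Atp6 (1.01 ± 0.14), and the lowest of those that rose were mt-Co3 (0.79 ± 0.09) and mt-Nd6 (0.80 ± 0.17). None rose or fell when mitochondrially encoded counts were themselves the scale. Of 52 tested assembly factors of complexes I to V and electron carriers outside the member list, 9 rose and 18 fell. These were 17.3% and 34.6%, beside 22% and 21.2% of all tested genes, and the median of the list was -0.22. Sco2, a copper chaperone of complex IV, went from 8.90 and 6.62 CPM to 38.6 and 22.8 CPM (log2 1.96 ± 0.27), and Sdhaf1, which helps insert iron-sulfur clusters into complex II, rose by 1.23 ± 0.19. Cycs, the mobile carrier cytochrome c, was chosen for its role after its value was seen and rose by 0.87 ± 0.15. Cmc1, an assembly factor of complex IV, had 1.54 and 1.27 CPM at 0 h and 0 counts at 5 h, at least 5.30-fold lower against the mean floor of the 5 h libraries. Sdhaf4, another complex II assembly factor, fell from 1.80 and 2.80 CPM to 0.483 and 0.432 CPM.

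Of 16 tested regulators of respiratory genes, 4 rose and 6 fell. Yy1 rose by 1.14 ± 0.09 and Pprc1, a coactivator related to PGC-1, by 0.67 ± 0.10, while Tfb1m, a mitochondrial ribosomal RNA methyltransferase, fell from 25.5 and 22.8 CPM to 8.01 and 9.19 CPM and Slirp, an RNA-binding partner of Lrpprc, fell by 1.41 ± 0.26. Gabpa, which encodes the DNA-binding part of GABP, lies on the strand opposite Atp5j with 967 bp of overlap. It was not called (0.23 ± 0.16), and without strand its reads and those of Atp5j in the overlap cannot be told apart. For comparison, 20 of 77 mitochondrial ribosomal protein genes rose and 20 fell (26.0% each, median -0.01). Of 76 cytosolic ribosomal protein genes, 73 rose (96.1%, median 1.01). These lists were not tested against the members.

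Overlap with other genes bears on some of these values. Of the 87 tested members, 27 overlap another RefSeq gene, and 12 of these rose (44.4%) and 6 fell (22.2%). The 60 that do not had 16 that rose (26.7%) and 9 that fell (15.0%), beside 22% and 21.2% of all tested genes. The share that rose was closer to that of all genes in the 60, and the share that fell was closer in the 27. Among these 60, complex III had 3 of 5 that rose, complex IV 5 of 10, complex V 4 of 10, and complex II 2 of 3 that fell. The other 12 members had too few counts to be tested. Ndufa11b, a short locus named as a copy of Ndufa11, had 0 and 0 counts at 0 h and 11 and 7 at 5 h, at least 2.83-fold higher against the mean floor of the 0 h libraries, and reads of Ndufa11 could map there. Ndufb4c had 8 and 4 counts and then 9 and 8, Ndufs6b had 0 and 2 and then 0 and 0, and a further row named Atp5o had 0 throughout.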

How the data were processed

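The deposited table held whole-number estimated counts per gene for 4 libraries. The tools named per the submitters' processing notes are HISAT2 (2.2.1), StringTie (2.2.1) and DESeq2 (1.42.0), with build mm10. Which of these made the table is not given in the sources used here, nor is the annotation or strandedness. The deposited expected counts have the layout of StringTie's export, where counts come from coverage, so counting error can exceed what the numbers imply; floors of 3 counts cover counting error only. Values were already whole. Genes kept by filterByExpr were fitted in edgeR 4.0.16 (R 4.3.3) with TMM factors and a robust quasi-likelihood test, 5 h minus 0 h, all 4 libraries, no block. SE is the log2 fold change over the root of F. Fold changes and p-values are not from the authors.

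Members, lists and tests were chosen with earlier results of these data known. Members were named by rule: in each of 7 groups the 3 highest and 3 lowest log2 fold changes, those that fell and isoform families; other members were named after their values were seen. Spans and promoter windows came from RefSeq (GRCm38.p6, which mm10 corresponds to), matched by symbol for all 87 tested members and 87.1% of all tested genes. Alternatives were other scalings, DESeq2 1.42.0, limma-voom (limma 3.58.1), no filter, at least 50 counts in every library of a group, counts divided by 4, the replicate block and leaving out each library. No set test was made, and no genome sequence was used here, so splice sites and exon lengths were not analysed here. The values of 1 member are not reported here, though it is counted in every summary.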

Additional observations from a re-analysis of the deposited data

How the results depend on the processing

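Of 28 members that rose, 16 kept their call without each library in turn, and Atp5e and Atp5g3 kept it in all 13 alternatives. Of 15 that fell, 9 lost their call without at least 1 of the libraries, and 6 kept it in all alternatives. The counts over all alternatives do not compare rises with falls. Library-total and mitochondrial scales lower the median of all tested genes (-0.28 and -0.86), which works against rises and not against falls. When these 2 scales were set aside, 16 of 28 rises and 6 of 15 falls kept their calls. Library totals gave 2297 higher genes of all tested, 15 higher and 23 lower members and a member median of -0.034; complex I accessory subunits then had 2 higher and 8 lower, assembly factors 0 higher, complex III 3 higher and 1 lower, and complex V 5 higher. Mitochondrial scaling gave 396 higher and 8872 lower genes (2.28% and 51.2% of all tested). It gave 2 and 40 members (2.30% and 46.0%) and a median of -0.60. Lower genes were 6 in the complex I core (85.7%), 14 in accessory subunits (46.7%) and 3 in assembly factors (37.5%). They were 2 in complex III (22.2%), 4 in complex IV (33.3%) and 7 in complex V (41.2%). With this scaling, higher genes were 0 in accessory subunits, assembly factors and complexes III and IV, and 2 in complex V (11.8%). Under it 45 of the 54 members above 0 were below 0, a shift that all genes share by construction (their median was -0.86). The 26 of them called with TMM or with this scaling were Ndufv1 -0.73, Ndufb8 -0.24, Ndufb5 -0.46, Ndufa4 -0.68, Ndufaf4 -0.39, Ndufaf7 -0.75, Uqcr10 -0.018, Cyc1 -0.090, Uqcrb -0.16, Uqcrfs1 -0.18, Uqcrc1 -0.57, Cox7a2 -0.037, Cox7b -0.10, Cox7c -0.12, Cox8a -0.19, Cox7a2l -0.20, Cox6c -0.37, Cox5a -0.66, Cox4i1 -0.81, Atp5j2 -0.14, Atp5l -0.19, Atp5a1 -0.29, Atp5d -0.41, Atp5j -0.43, Atp5b -0.51 and Atp5o -0.69. DESeq2 gave 8 lower members, 3 higher and 1 lower accessory subunits, 0 lower assembly factors, 0 lower in complex IV and 1 lower in complex V. At least 50 counts in every library of a group gave 6 lower accessory subunits, 0 lower assembly factors and a member median of 0.17 over fewer genes. Counts divided by 4 gave 5 lower accessory subunits and 2 higher assembly factors. Apart from the scalings and the tested set, the cause was not tested.

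Same-numbered libraries deviated together at r = 0.0505 across genes, so the numbers were not taken to pair the libraries. With the replicate block 27 members rose and 12 fell, with 0 and 0 assembly factors and 2 lower genes in complex V.

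Leaving out each library gave 2721 to 3765 higher and 2609 to 3834 lower genes, 18 to 27 higher and 8 to 13 lower members, and a member median of 0.18 to 0.29. Higher and lower genes were 0 to 0 and 2 to 3 in the complex I core, 2 to 6 and 1 to 3 in accessory subunits, 0 to 2 and 0 to 1 in assembly factors, 0 to 0 and 2 to 3 in complex II, 5 to 6 and 0 to 0 in complex III, 6 to 7 and 0 to 1 in complex IV, and 5 to 9 and 1 to 3 in complex V. A lone library left in a group is assumed to vary like the others.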
